A study of Homo sapiens with 4 samples.

Results

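The transcripts described are long non-coding RNAs that carry small nucleolar RNAs (snoRNAs) in their introns and are known, or thought, to begin with a terminal oligopyrimidine (TOP) tract. The group was defined by 10 gene symbols: GAS5, SNHG1, SNHG5, SNHG6, SNHG7, SNHG8, SNHG12, SNHG15, ZFAS1 and EPB41L4A-AS1. A row of the expression table was taken as a member where its Entrez gene number mapped to one of these symbols. This gave 9 transcripts among 24241 named genes, and SNHG1 was not analysed here. None of the 9 passed the test for a difference after rapamycin, and the largest difference was that of SNHG12, at 9.47 ± 0.02 log2 units in control cells and 9.21 ± 0.09 with rapamycin (SD, n = 2).

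Gene expression was measured on 4 single-colour whole-transcript arrays of MOLM-14, a human acute myeloid leukemia cell line with an activating duplication in the receptor kinase FLT3 and a KMT2A fusion. Arrays of 2 control cultures, given no rapamycin, were compared with arrays of 2 cultures given 10 nM rapamycin for 24 hours, and the design calls them biological replicates. Rapamycin binds FKBP12 and inhibits mTORC1, the kinase complex that couples nutrients to protein synthesis. Growth and treatment protocols that all 4 arrays share describe MOLM-14 cells with doxycycline-inducible hairpin RNAs, scrambled or against PIM2, kept for 72 hours in 200 ng/ml doxycycline. The labels leave unstated which hairpin, if any, these cultures carried, so the controls may differ from unmodified MOLM-14. No label adds that replicates were grown separately, so the p-values rest on array-to-array spread that may be technical. In bulk RNA, fewer cells of a type and less RNA per cell cannot be told apart.

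Array medians lay between 5.38 and 5.45 log2 units. Of a list of myeloid leukemia markers, 8 of 8 measured genes were above the low-signal filter, among them FLT3, at 10.53 ± 0.07 in control and 10.78 ± 0.09 with rapamycin (SD, n = 2; adjusted p = 0.16 by limma). Of 13 measured markers of lymphoid, epithelial, liver, red cell, stromal, vessel and platelet lineages, 8 were below it, and 0 of the other 5 differed at an adjusted p under 0.05. These 5 were KRT18, NKG7, COL1A1, PECAM1 and COL1A2, with means over the 4 arrays of 7.42, 7.345, 6.46, 5.88 and 5.10. The lowest such mean of the myeloid list was 7.22, for CSF1R. No library was left out.

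SnoRNAs guide chemical modification of ribosomal RNA, box C/D snoRNAs (SNORD) directing methylation and box H/ACA snoRNAs (SNORA) directing pseudouridylation. In vertebrates most are cut from introns, so splicing of a host transcript releases the snoRNA and leaves an exonic RNA behind. A TOP tract is a C at the cap followed by pyrimidines, and LARP1 binds it when mTORC1 is inactive, which holds TOP transcripts off ribosomes. The spliced hosts carry only short reading frames, and ribosomes that read these expose them to nonsense-mediated decay (NMD). GAS5, named for its growth-arrest specific level, is the best known case, and its RNA is known from other cells to build up when translation or mTORC1 is blocked. The comparison bears on whether the steady level of these hosts differed after 24 hours of rapamycin.

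The start sequences are shown because the TOP tract is what the group is named for. They are RefSeq promoter sequences (GRCh38.p14) and 7 of the 9 members are shown here. Each run covers 20 bases before the annotated start and 50 from it on, 5′ to 3′ on the strand of the gene. Capitals mark the tract nearest to the annotated start within the run, where a tract is a C followed by at least 4 pyrimidines (C or T), read on the gene's strand only. Where the start base itself is such a C, the tract is marked from there.
SNHG12, chr1:28581824-28581893, minus strand: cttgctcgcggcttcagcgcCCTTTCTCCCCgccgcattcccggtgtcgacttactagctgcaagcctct
SNHG5, chr6:85678684-85678753, minus strand: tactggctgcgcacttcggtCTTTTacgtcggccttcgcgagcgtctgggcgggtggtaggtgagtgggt
ZFAS1, chr20:49278622-49278691, plus strand: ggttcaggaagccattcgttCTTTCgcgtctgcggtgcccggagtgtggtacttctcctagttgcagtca
SNHG7, chr9:136728135-136728204, minus strand: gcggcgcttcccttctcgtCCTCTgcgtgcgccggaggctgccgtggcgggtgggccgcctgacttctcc
SNHG8, chr4:118278742-118278811, plus strand: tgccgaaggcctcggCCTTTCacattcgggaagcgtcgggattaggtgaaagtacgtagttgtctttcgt
GAS5, chr1:173868996-173869065, minus strand: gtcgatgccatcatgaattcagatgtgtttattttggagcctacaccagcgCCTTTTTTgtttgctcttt
EPB41L4A-AS1, chr5:112160506-112160575, plus strand: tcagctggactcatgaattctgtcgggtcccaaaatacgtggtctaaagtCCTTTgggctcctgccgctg

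A C at the annotated start followed by at least 4 pyrimidines was found in 3 of these 7 members, SNHG12, SNHG5 and ZFAS1. In SNHG12 the base before the start is also a C, so its pyrimidine run begins earlier. Such a C, whatever base came before it, stood at the start in 4.07% of 35116 promoters of the same table. The counts were 15 of 29 protein-coding TOP snoRNA hosts found there and 4 of 17 other non-coding hosts of small RNAs. Allowing the tract to begin within 10 bases of the start added SNHG7 and SNHG8, which gives 5 of 7. The same window held a tract in 33.5% of all promoters, 21 of 29 coding hosts and 11 of 17 other non-coding hosts. The longest tract was that of SNHG12, with 11 bases counted from the annotated start. In GAS5 the 8-base tract began at base 32 and in EPB41L4A-AS1 the 5-base tract began at base 31, counting the annotated start as base 1. An annotated start can lie away from the cap site used in these cells, which was not measured. A match describes letters in a window and is no proof of regulation.

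All 9 measured members passed the filter, which kept genes with a mean over the 4 arrays of at least 4.86 log2 units, and so all 9 entered the test. Of them 0 rose and 0 fell at an adjusted p under 0.05 in the limma fit over 14635 genes, in which 187 genes, 1.28%, were called (0.417% higher and 0.861% lower). At an unadjusted p under 0.05 there was 1 member, SNHG12, which was lower, against 15.4% of all genes tested (8.23% lower and 7.22% higher). The log2 fold changes (rapamycin minus control) of the members ran from -0.27 to 0.05 with a median of -0.06, beside medians of 0.01 over all genes and 0.05 over the 1161 long non-coding RNA genes tested. They were below 0 for 7 members and above 0 for 2, but 5 and 4 after a repeated quantile normalization, and 8 and 1 with each array centred on its median. The rapamycin arrays lay below both control arrays in 3 members and above both in 0. Over all genes the groups did not overlap in 46.8%, with rapamycin lower in 21.8% and higher in 24.9%. Levels of different members are not set against each other, since each probe set has its own response.

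SNHG12 hosts SNORA44, SNORA61, SNORA16A and SNORD99. It was at 9.46 and 9.49 log2 units on the control arrays and at 9.14 and 9.27 on the rapamycin arrays. Both rapamycin arrays lay below both controls, and the gap between the groups was wider than that within either. The log2 fold change was -0.27 (SE 0.08, 95% interval -0.45 to -0.09), or 1.20-fold lower. By limma the unadjusted p was 0.00754 and the adjusted p was 0.148, so it was not called. Without rapamycin replicate 2 it passed, with a log2 fold change of -0.33 and an adjusted p of 0.0449.

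GAS5 carries box C/D snoRNAs in its introns, and its exonic RNA is known as a decoy for the glucocorticoid receptor. Its values were 12.29 and 12.38 log2 units in control and 12.25 and 12.20 with rapamycin. The rapamycin arrays again lay below both controls, but the nearest arrays of the groups were closer together than the controls were to each other, at 0.09. The log2 fold change was -0.11 (SE 0.06, 95% interval -0.25 to 0.03, adjusted p = 0.437 by limma). The upper end of that interval corresponds to 1.02-fold. The interval rests on 2 arrays per group, whose spread may be technical, so it does not exclude a larger increase of GAS5. With an array left out the log2 fold change ran from -0.158 to -0.0642.

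EPB41L4A-AS1, which hosts SNORA13 and is transcribed next to EPB41L4A, stood at 9.76 and 9.72 in control and at 9.66 and 9.71 with rapamycin. The groups did not overlap, although the nearest values of the groups differed by less than those within each group. The log2 fold change was -0.06 (SE 0.07, 95% interval -0.22 to 0.10, adjusted p = 0.764 by limma).

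ZFAS1 hosts the SNORD12 family and is one of the members whose tract begins at the annotated start. Its values were 10.87 and 10.95 in control and 10.90 and 10.89 with rapamycin. Both rapamycin values lay between the controls, with a log2 fold change of -0.01 (SE 0.07, 95% interval -0.16 to 0.14, adjusted p = 0.96 by limma), which was 0.02 after repeated quantile normalization. SNHG5, the host of SNORD50A and SNORD50B and also with a tract at its start, was at 9.28 and 9.12 in control and at 9.17 and 9.11 with rapamycin. Its groups overlapped and the log2 fold change was -0.06 (SE 0.08, 95% interval -0.25 to 0.13, adjusted p = 0.787 by limma).

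SNHG8, the host of SNORA24, read 9.90 and 10.12 in control and 9.92 and 10.07 with rapamycin. The rapamycin values lay between the controls, and the log2 fold change was -0.01 (SE 0.09, 95% interval -0.22 to 0.19, adjusted p = 0.967 by limma), or 0.04 after repeated quantile normalization. SNHG6, the host of SNORD87, read 11.72 and 11.68 in control and 11.81 and 11.69 with rapamycin, with a log2 fold change of 0.05 (SE 0.07, 95% interval -0.10 to 0.19, adjusted p = 0.799 by limma). One rapamycin array lay above both controls and the other between them.

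SNHG15, the host of SNORA9, read 7.98 and 7.93 in control but 7.84 and 8.10 with rapamycin. The rapamycin arrays lay on opposite sides of the controls, 0.27 log2 units apart, so the log2 fold change of 0.01 (SE 0.11, 95% interval -0.23 to 0.26, adjusted p = 0.969 by limma) averages values that differ, and centring the arrays on their medians gave -0.02. SNHG7 read 5.17 and 5.39 in control and 5.14 and 5.18 with rapamycin. It was close to the low-signal filter of 4.86 and its groups overlapped, with a log2 fold change of -0.12 (SE 0.14, 95% interval -0.44 to 0.20, adjusted p = 0.738 by limma).

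**Figure D1:**
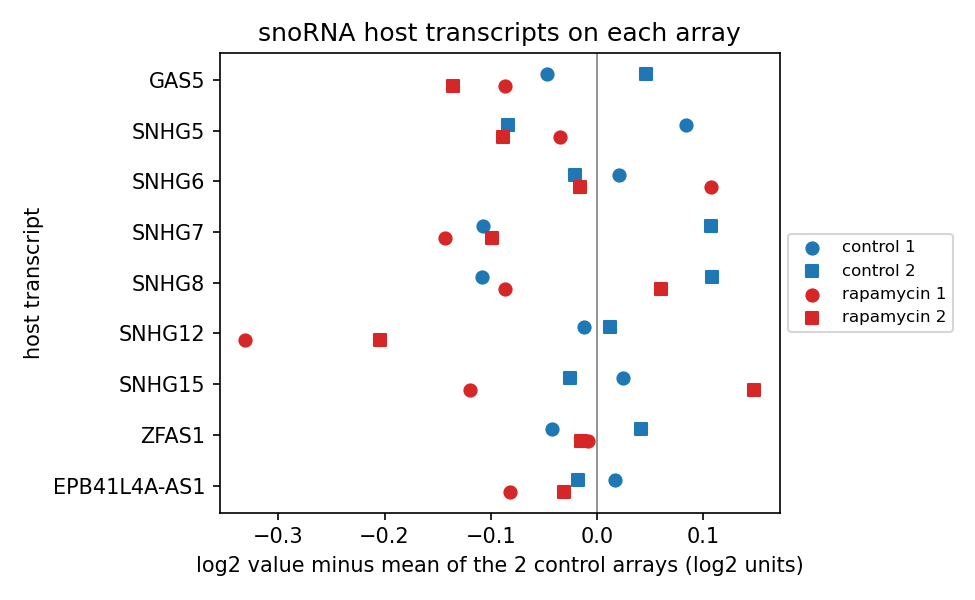
Each point is 1 array, plotted as its log2 value minus the mean of the 2 control arrays (x axis, log2 units) for each host transcript (y axis), with control in blue, rapamycin in red, replicate 1 as circles and replicate 2 as squares. SNHG12 has both rapamycin arrays well to the left of both controls, while the rapamycin arrays of SNHG15 lie on either side of them.

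Over the 9 members, the lowest bound of a 95% interval was -0.45, for SNHG12, and the highest was 0.26, for SNHG15, on the log2 scale. These bounds correspond to 1.36-fold lower and 1.20-fold higher. The intervals come from the limma fit, hold for 1 gene at a time and do not show that the levels were equal. Averaged over the members, the deviation from each gene's own mean was 0.01 and 0.05 log2 units on the control arrays and -0.05 and -0.01 on the rapamycin arrays. The genes nearest to that averaged profile were PLEKHM3, THAP11 and LTAP1, at a root-mean-square distance of 0.004 to 0.005 log2 units over the 4 arrays, which says little for so flat a profile.

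A further 16 non-coding hosts of small RNAs were measured, from a list of 21, and 0 of them were called. All are listed as snoRNA hosts except MIR17HG, the host of the miR-17 to miR-92 microRNA cluster, which was included in the list by mistake and is kept. Their median log2 fold change was 0.09, beside 0.05 over long non-coding RNA genes, with 14 above 0 and 2 below. An unadjusted p under 0.05 by limma was found for 3, all 3 higher, against 15.4% of all genes tested (7.22% higher). SNHG3, the host of SNORA73A and SNORA73B, was at 8.91 and 8.98 in control and at 9.26 and 9.41 with rapamycin. Its groups were apart, with a log2 fold change of 0.39 (SE 0.08, adjusted p = 0.0606 by limma). MIR17HG was at 6.81 and 7.03 in control and 7.34 and 7.55 with rapamycin, with a log2 fold change of 0.52 (SE 0.12, adjusted p = 0.0791 by limma). Both passed with replicate number as a block, at adjusted p = 0.0347 for SNHG3 and 0.0372 for MIR17HG, and without rapamycin replicate 1, at 0.00606 and 0.0144. The difference between these hosts and the 9 members was not tested.

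**Figure D2:**
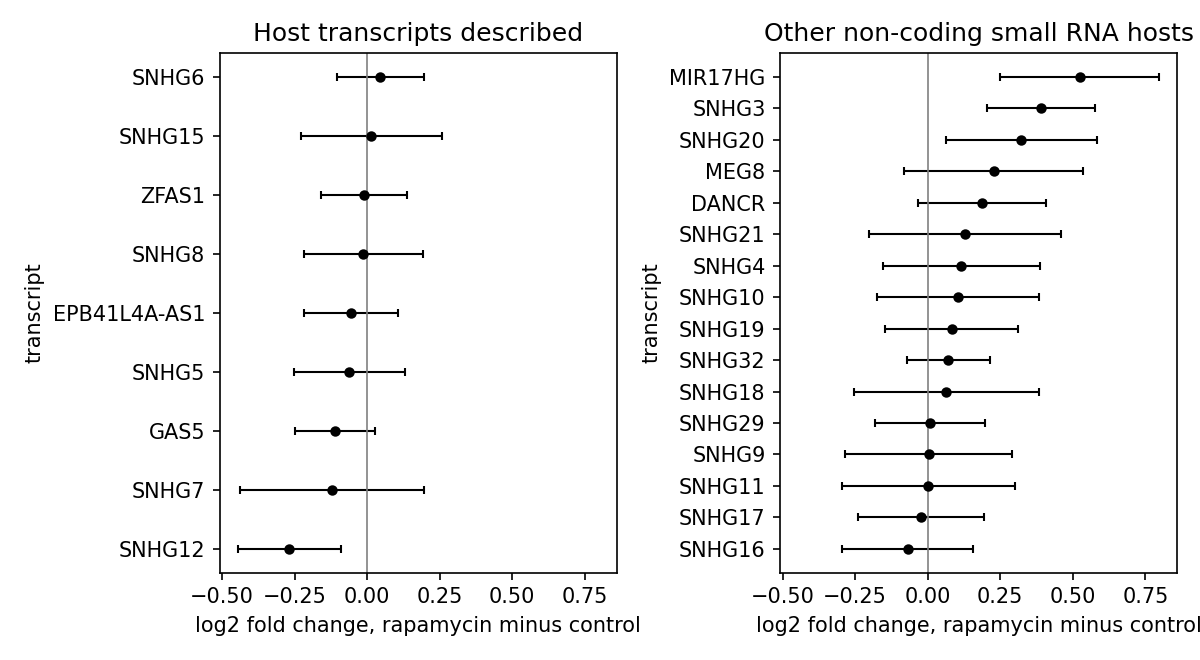
Log2 fold changes, rapamycin minus control (x axis), with 95% intervals from the limma fit (bars), for the 9 members (left) and 16 other non-coding small RNA hosts (right), sorted by value. The interval of SNHG12 lies below 0 and those of SNHG3, MIR17HG and SNHG20 (the last named after its value was seen) lie above it, and 0 of the transcripts passed after adjustment over all genes.

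SnoRNAs of the 10 listed hosts were then read, since host and snoRNA leave the same precursor. A probe set was found for 29 of the 33 listed snoRNAs and all 29 passed the filter. None of these 29 belonged to SNHG7. Such probe sets can read the precursor intron as well as the mature snoRNA. Of the 29, 0 were called, and their median log2 fold change was 0.01, with 16 above 0 and 13 below. An unadjusted p under 0.05 by limma was found for 3 of them, against 15.4% of all genes tested. SNORD75 and SNORA13 were higher and SNORD44 lower.

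The 9 measured snoRNAs of GAS5 had differences of either sign, 3 above 0 and 6 below. SNORD44 was at 11.57 and 11.82 in control and 11.54 and 11.45 with rapamycin (log2 fold change -0.20, SE 0.09, adjusted p = 0.305 by limma). SNORD75 was at 9.23 and 9.20 in control and 9.41 and 9.46 with rapamycin (log2 fold change 0.22, SE 0.07, adjusted p = 0.208 by limma). The groups did not overlap in either, as in 46.8% of all genes tested, and the differences had opposite signs. For SNORD44 the control arrays were 0.25 log2 units apart, more than the gap between the nearest control and rapamycin arrays. Both snoRNAs lie in GAS5 introns, and the difference between them was not tested. The other GAS5 snoRNAs were SNORD80 at -0.19, SNORD47 at -0.16, SNORD76 at -0.14, SNORD79 at -0.07, SNORD77 at -0.04, SNORD74 at 0.12 and SNORD81 at 0.15 (log2 fold changes), and 0 were called.

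SNORA13, in EPB41L4A-AS1, had the largest difference of the 29. It was at 7.90 and 8.25 in control and at 8.35 and 8.62 with rapamycin, with a log2 fold change of 0.41 (SE 0.13, adjusted p = 0.183 by limma), where its host stood at -0.06. SNORA9, in SNHG15, was at 8.79 and 9.32 in control and at 9.12 and 9.78 with rapamycin, and its groups overlapped (log2 fold change 0.40, SE 0.21, adjusted p = 0.41 by limma), where its host stood at 0.01. With replicate number as a block, SNORA13 had an adjusted p of 0.0458 and SNORA9 of 0.0338, and without rapamycin replicate 1 they had 0.0249 and 0.0198. The difference between snoRNA and host was not tested.

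Of the snoRNAs of SNHG12, SNORD99 stood at -0.29, SNORA61 at 0.03, SNORA16A at 0.05 and SNORA44 at 0.10 (log2 fold changes). SNORA16A was at 11.04 and 11.14 in control and at 10.90 and 11.37 with rapamycin, and its log2 fold change was 0.28 without rapamycin replicate 1. SNORD99, at 5.34 and 5.70 in control and 5.32 and 5.13 with rapamycin, had the same sign as its host, but its lower control was within 0.02 of the higher rapamycin array (adjusted p = 0.429 by limma). The SNORD12 family of ZFAS1 stood at 0.11 for SNORD12, 0.00 for SNORD12B and 0.17 for SNORD12C. SNORD50A and SNORD50B of SNHG5 stood at -0.04 and 0.01, SNORD87 of SNHG6 at 0.06 and SNORA24 of SNHG8 at 0.05. The 7 measured snoRNAs of SNHG1 ran from -0.12 for SNORD27 to 0.20 for SNORD30.

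**Figure D3:**
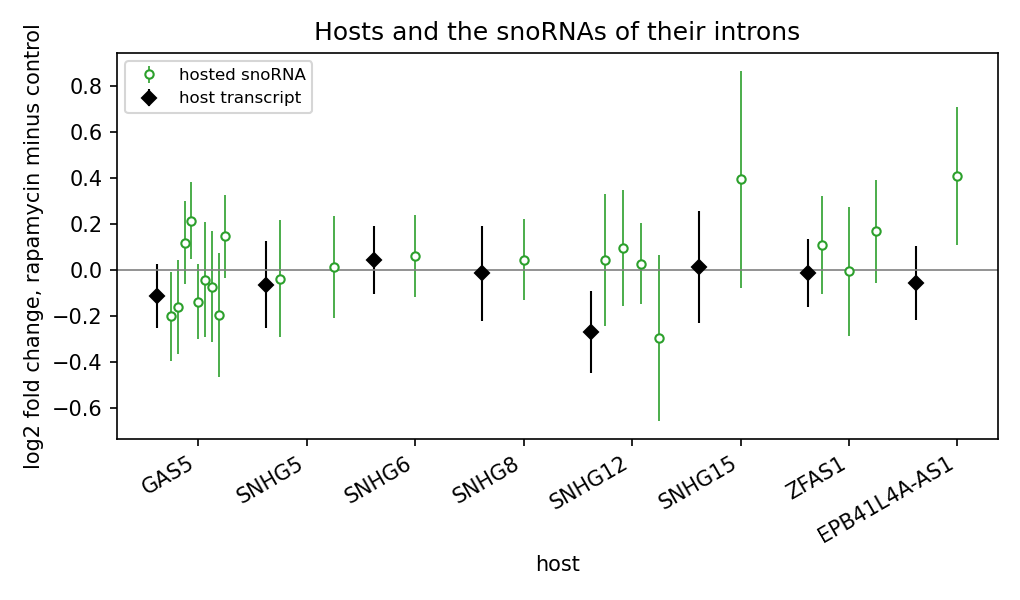
Log2 fold changes, rapamycin minus control (y axis), of each host transcript (black diamonds) and of the snoRNAs in its introns (green circles), grouped by host (x axis), with 95% intervals from the limma fit as bars. The snoRNAs of GAS5 lie on both sides of 0, and those of SNHG15 and EPB41L4A-AS1 lie about 0.4 above it while their hosts lie near 0.

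SnoRNA probe sets also differed between arrays of the same group. Control replicate 2 read above control replicate 1 in 27 of the 29 hosted snoRNAs, by a median of 0.25 log2 units, against 5 of the 9 hosts and 51.9% of all genes tested. Over all 220 snoRNA genes tested this share was 87.3%, and over 12429 protein-coding genes it was 53.1%. Rapamycin replicate 2 read above replicate 1 in 21 of the 29, by a median of 0.07. The part that this difference between control arrays played in the snoRNA values was not tested.

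**Figure D4:**
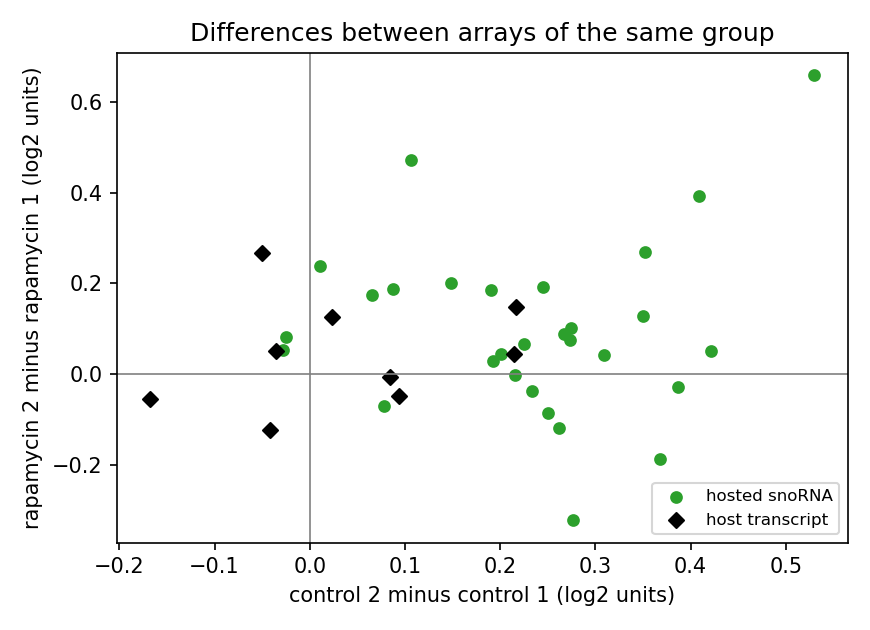
Control replicate 2 minus control replicate 1 (x axis) against rapamycin replicate 2 minus rapamycin replicate 1 (y axis), in log2 units, for the 9 hosts (black diamonds) and 29 hosted snoRNAs (green circles). All but 2 snoRNAs lie to the right of 0, while the hosts lie on both sides.

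Protein-coding hosts with TOP messages, mostly ribosomal proteins and translation factors, gave 0 called genes of 17 tested, with a median log2 fold change of -0.02. TAF1D, a subunit of the RNA polymerase I factor SL1, stood at -0.33 (SE 0.10, adjusted p = 0.153 by limma), and the ribosomal protein gene RPL37 at 0.25 (SE 0.09, adjusted p = 0.211 by limma). Of 10 regulators of TOP translation 0 were called (median -0.01). CNBP, a zinc-finger protein that binds TOP messages, stood at -0.23 (adjusted p = 0.175) and the translation repressor EIF4EBP2 at 0.15 (adjusted p = 0.346). Without rapamycin replicate 1 the log2 fold changes were -0.46 for TAF1D and -0.31 for CNBP. In that setting the coding hosts RPL23A and TPT1, named after their values were seen, were higher, at 0.46 and 0.25. LARP1, named for its role after its value was seen, stood at -0.02 (SE 0.07, adjusted p = 0.925 by limma).

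NMD factors gave 0 called genes of 18, with a median log2 fold change of -0.03. SMG1, the kinase that phosphorylates UPF1, was at 8.96 and 8.94 in control and 9.10 and 9.29 with rapamycin. Its log2 fold change was 0.25 (SE 0.09, adjusted p = 0.213 by limma), and 0.34 without rapamycin replicate 1. The exon junction protein RBM8A stood at 0.33 (adjusted p = 0.377 by limma). Of 17 tested genes listed for transcripts known as decay targets 0 were called (median -0.06). Each gene gave 1 value, so its different transcripts were not told apart. An unadjusted p under 0.05 by limma was found for 6, 2 higher and 4 lower. The share over all genes tested was 15.4% (7.22% higher and 8.23% lower). The stress-induced growth inhibitor GADD45A was at 9.00 and 8.88 in control and 8.62 and 8.47 with rapamycin (log2 fold change -0.39, SE 0.09, adjusted p = 0.0753 by limma). Its adjusted p by limma was 0.0441 after centring arrays on their medians and 0.0398 under the replicate block. Those settings called 317 and 321 genes in all. GADD45A passed under no other setting that kept all 4 arrays. Without rapamycin replicate 1 its log2 fold change was -0.47. The splicing factor TRA2B stood at 0.19 (adjusted p = 0.215).

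Among 9 genes of decapping and decay from the cap, 0 were called (median -0.10). The decapping cofactor DCP1A was at 8.69 and 8.72 in control and 8.41 and 8.37 with rapamycin (log2 fold change -0.32, SE 0.08, adjusted p = 0.108 by limma), and the scaffold PATL1 stood at -0.25 (SE 0.07, adjusted p = 0.125 by limma). The groups were apart in both. Of 14 snoRNP proteins and assembly factors 0 were called (median -0.06), with the core box C/D protein NOP56 at 0.25 (adjusted p = 0.2) and the assembly ATPase RUVBL2 at -0.22 (adjusted p = 0.262). NOP56 is itself a snoRNA host. Without rapamycin replicate 1 the adjusted p was 0.0269 for DCP1A, 0.0384 for PATL1 and 0.00781 for NOP56.

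Several members share a promoter region or neighbourhood with a coding gene. A nearest gene within 5000 bases passed the filter and was tested for 6 of them, with 0 called. ZNFX1, which runs antisense to ZFAS1 from the same start region, was at 7.09 and 6.96 in control and at 7.38 and 7.49 with rapamycin. Its groups were apart, at a log2 fold change of 0.41 (SE 0.11, adjusted p = 0.111 by limma), where ZFAS1 stood at -0.01, and the difference between them was not tested. The other neighbours stood at 0.25 for DIPK1B beside SNHG7, 0.20 for PRSS12 beside SNHG8, 0.07 for ZBTB37 beside GAS5, 0.01 for TRNAU1AP beside SNHG12 and 0.00 for MYO1G beside SNHG15 (log2 fold changes).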

How the data were processed

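The authors deposited log2 expression values, with 1 value for each probe set on an array. The submitters' processing notes list RMA and Partek without a version or a step. Their range, from 1.81 to 13.3, is that of a log2 scale. The genome build of the probe sets is not given in the sources used here. Of 25582 probe sets, 24244 had 1 gene symbol in the platform annotation, none had several and 1338 had none.

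Genes under the 40th percentile of the mean over the 4 arrays were left out, which kept 14635. Groups followed the agent in the labels, and replicate numbers the titles. The groups were compared by limma (version 3.58.1, R version 4.3.3; group as the only term, eBayes with a mean-variance trend, two-sided). Benjamini-Hochberg adjustment ran over every gene tested, with calls at an adjusted p under 0.05. Array number, 2 against 2, limits the precision, with a median SE of 0.12. The code was tested on simulated data.

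The members and lists were chosen with earlier results of these data known. All members were named, and of each companion list other than the marker lists the called genes and the 2 with the smallest p. Alternatives covered the filter, array scaling, moderation, a replicate block, leaving out each array and the window of the start-sequence search.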

Additional observations from a re-analysis of the deposited data

How the results depend on the processing

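In the limma fit 0 members were called (1 at an unadjusted p under 0.05), as under 10 of the 11 alternatives, and with an array left out the count ran from 0 to 1. The exception was SNHG12 without rapamycin replicate 2. With 1 array left in a group, that array is assumed to vary like the others. The median log2 fold change of the members, -0.06, was -0.0349 with the filter at the 60th percentile, -0.0873 after centring, -0.0145 after repeated quantile normalization and from -0.0866 to -0.0134 with an array left out. Signs turned for SNHG15 after centring (-0.0162) and for SNHG8 (0.0406) and ZFAS1 (0.0218) after repeated quantile normalization. With an array left out SNHG5 ran from -0.146 to 0.0219, SNHG6 from -0.0154 to 0.107, SNHG8 from -0.122 to 0.0952, SNHG15 from -0.119 to 0.149 and ZFAS1 from -0.0537 to 0.0301. The sign held but the size varied for SNHG7 (-0.228 to -0.0134), GAS5 (-0.158 to -0.0642), EPB41L4A-AS1 (-0.0821 to -0.0307) and SNHG12 (-0.331 to -0.205). The cause was not tested. In all, 10 of 98 recomputed member values had the opposite sign, and 0 of these 10 were called.

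The count over all genes, 187, was 60 with no filter, 317 after centring, 17 without the mean-variance trend, 321 with the replicate block and from 76 (without control replicate 2) to 1300 (without rapamycin replicate 1). Counts in the 8 companion lists were 0 in 76 of 88 recomputations. After centring 1 decay target was called. The replicate block called 2 other non-coding hosts, 2 hosted snoRNAs and 1 decay target, and 0 members. The labels do not say whether same-numbered arrays were handled together. Their deviations correlated at -0.033 over all probe sets, which cannot decide this for single genes or for snoRNAs. With an array left out, counts ran from 0 to 3 for other non-coding hosts, hosted snoRNAs, coding hosts and decay from the cap, from 0 to 2 for decay targets and snoRNP proteins, and from 0 to 1 for NMD factors and TOP regulators, each highest without rapamycin replicate 1. The cause was not tested.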
